A study of Mus musculus with 18 samples.

Results

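The genes described here are the nuclear genes for subunits of respiratory complexes III, IV and V, together with the electron carrier cytochrome c. Members were taken by their symbols, which begin with Uqcr, Cox4 to Cox8 or Atp5, or are Cyc1 or Cycs. Of 43430 genes in the table, 52 symbols matched, 6 of them were pseudogenes and 4 (Cox6b2, Cox6c2, Cox7b2 and Cox8c) did not reach 10 counts in at least 3 of 18 libraries, which left 42. These are 9 genes of complex III, Cycs, 15 genes of complex IV and 17 genes of ATP synthase (complex V), and all 42 passed the filter on low counts that kept 13596 genes for testing. The selection goes by name, so it also holds Cox7a2l and Atp5s, a coupling factor of ATP synthase. Cox7a2l has been described as a factor for supercomplexes of complexes III and IV, a role not examined in these mice.

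Polyadenylated RNA was sequenced from isolated quadriceps myofibers of mice labelled C57BL/6 (C57BL/6J in the study's methods). The 6 groups were males and females given vehicle, weekly prednisone or daily prednisone, with 3 libraries in each group and 1 mouse per library. Mice were 10 weeks old when 4 weeks of intraperitoneal injections began, and all of them were injected every day. Vehicle mice received DMSO in PBS, daily mice received prednisone at 1 mg/kg, and weekly mice received the same dose on 1 day of the week and vehicle on the others, with the last prednisone dose 2 days before harvest. Prednisone is a synthetic glucocorticoid. Muscles were digested with collagenase, and what a 40 μm strainer held back was taken as myofibers, a step that does not remove every other cell.

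Complex III passes electrons from ubiquinol to cytochrome c, and complex IV passes them from cytochrome c to oxygen. Both pump protons across the inner mitochondrial membrane, and ATP synthase uses the returning protons to make ATP. A few subunits of these complexes are encoded in mitochondrial DNA and all others are nuclear. Some complex IV subunits exist as a heart and muscle form and a form made in most tissues.

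Total counts ranged from 10506661 to 14686654 per library, and genes of mitochondrial DNA took 11.7% to 36.4% of them. The 42 genes took 0.905% to 2.02%. Levels are given as CPM, counts scaled to the library size after TMM normalization. Myofiber markers summed to between 102254 and 184155 CPM in every library, and none was at 0 in any group. Libraries of weekly females stood apart. Replicate 1 held 2325 CPM of slow-fiber markers against 112 to 581 CPM in the other 17 libraries, and 40 of the 42 genes lay above all female vehicle libraries in it, against 31.9% of all tested genes. Replicate 3 had the highest sums of adipocyte and brown adipocyte markers, given beside the genes that moved with them. Where leaving out replicate 1 moved a count or a median of the 42 genes by over 1.5 times, the value without it is given. Fewer myofibers in a sample and less RNA per myofiber cannot be told apart in such data.

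Some of the results for complex IV concern pairs of alternative forms, and the available sequences before their start sites differed visibly between the forms. RefSeq windows (build GRCm38.p6, 250 bases before to 50 bases after a start site) were matched for 32 of the 42 genes, with 35 windows in all. The isoform genes Cox6a2, Cox4i1 and Cox4i2 had no matched window. Shown here are the 250 bases before the start of the 5 isoform genes with a window, written 5′ to 3′ on the strand of the gene, with each CG pair in capitals. They lie at chr5:115348959-115349208 for Cox6a1, chr7:30183921-30184170 for Cox7a1, chr9:79759854-79760103 for Cox7a2, chr19:7217617-7217866 for Cox8a and chr7:140900447-140900696 for Cox8b. The Cox7a1 window is on the plus strand and the others are on the minus strand. The end of the Cox6a1 window nearest its start site lies inside the gene as the deposited table places it.
Cox7a1: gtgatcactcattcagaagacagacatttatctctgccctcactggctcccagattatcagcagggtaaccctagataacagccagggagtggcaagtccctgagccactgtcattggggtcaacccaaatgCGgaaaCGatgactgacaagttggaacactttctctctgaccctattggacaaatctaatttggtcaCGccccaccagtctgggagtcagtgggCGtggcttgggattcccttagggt
Cox8b: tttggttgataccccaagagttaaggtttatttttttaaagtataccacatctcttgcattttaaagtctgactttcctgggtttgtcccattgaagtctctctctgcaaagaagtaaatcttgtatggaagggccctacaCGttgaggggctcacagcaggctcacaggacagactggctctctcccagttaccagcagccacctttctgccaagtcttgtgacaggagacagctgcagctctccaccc
Cox6a1: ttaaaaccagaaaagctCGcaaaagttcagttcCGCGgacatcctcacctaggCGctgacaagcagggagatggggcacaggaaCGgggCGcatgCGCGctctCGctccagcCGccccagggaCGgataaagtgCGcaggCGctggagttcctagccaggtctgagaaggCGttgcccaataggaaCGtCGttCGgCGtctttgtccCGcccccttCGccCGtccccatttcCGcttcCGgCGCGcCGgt
Cox7a2: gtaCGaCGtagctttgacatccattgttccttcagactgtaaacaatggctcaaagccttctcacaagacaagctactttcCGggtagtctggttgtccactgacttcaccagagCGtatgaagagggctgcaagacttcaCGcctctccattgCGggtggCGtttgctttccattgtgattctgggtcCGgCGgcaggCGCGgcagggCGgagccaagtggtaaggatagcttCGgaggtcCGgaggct
Cox8a: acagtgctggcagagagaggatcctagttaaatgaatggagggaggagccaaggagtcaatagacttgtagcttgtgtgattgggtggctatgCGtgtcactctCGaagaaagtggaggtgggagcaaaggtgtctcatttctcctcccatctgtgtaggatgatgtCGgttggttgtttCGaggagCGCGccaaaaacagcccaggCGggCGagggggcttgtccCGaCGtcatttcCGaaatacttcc

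Cox7a1 and Cox8b, the heart and muscle forms of subunits 7A and 8, held 4 and 1 CG pairs in these 250 bases. Cox7a2 and Cox8a, their counterparts, held 14 and 11, and Cox6a1, the widely made form of subunit 6A, held 26. Over the whole 300 bases the median was 19 CG pairs in the 35 windows of the respiratory genes and 7 in 32851 windows of all genes, and Cox8b with 2 was the poorest of the 35. The windows were searched on both strands for motifs of factors known from respiratory gene promoters. The full NRF1 motif was found in 11.4% of the 35 windows and 0.971% of all windows, and its core GCATGCGC, which every full match contains, in 20% and 2.71%. The ETS motif CCGGAAG, bound by GABP, was found in 28.6% and 8.86%. For the YY1 motif AAGATGG the shares were 11.4% and 6.34%, and for the estrogen-related receptor core AAGGTCA, 11.4% and 4.72%. Any of these stood in 48.6% of the 35 windows and 20.7% of all. Among the 5 windows printed, Cox6a1 held the NRF1 and ETS motifs, and the others held none. Cox8a had an ETS motif in its 300 bases that does not lie wholly within the 250 printed. The NRF1 and ETS motifs contain CG pairs, of which the 35 windows held more, and the windows compared were not matched for CG content. These are matches of letters and were not related to binding.

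In vehicle muscle the 42 genes differed widely in level. Per kilobase of transcript, mean vehicle levels ran from 3.96 CPM per kb for Cox4i2, the form of subunit 4 known from lung, to 1061 CPM per kb for Cox6a2, the heart and muscle form of subunit 6A, with a median of 424 CPM per kb. The summed level of all 42 was 14616 ± 565 CPM (SD, n = 3) in vehicle-treated males and 12868 ± 1566 CPM in vehicle-treated females. Of the 42, 37 had a lower fitted level in females and the median log2 difference was −0.18, against 0.02 for all tested genes. No gene passed an adjusted p of 0.05 for that difference with edgeR, where 0.765% of all tested genes did, and none did with DESeq2. A single gene had an unadjusted p under 0.05, where 10.4% of all tested genes did.

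Daily prednisone lowered the expression of many of these genes in males. The summed level was 9753 ± 1615 CPM in daily treated males against 14616 ± 565 CPM in vehicle-treated males, and the daily libraries, from 8030.1 to 11233 CPM, all lay below the lowest vehicle library at 14262 CPM. By edgeR's quasi-likelihood test, with p adjusted over all 13596 tested genes by Benjamini-Hochberg, 22 of the 42 genes fell and none rose, while 4.38% of all tested genes fell and 2.07% rose (6.46% together). The called falls ranged from 0.55 to 1.22 on the log2 scale. The median log2 fold change of the 42 was −0.70, against 0.05 for all tested genes, and 40 of the 42 lay below 0, as did 45.5% of all. In 36 genes the 3 daily libraries lay below all 3 vehicle libraries, as was so for 17.1% of all tested genes. The 4 genes called in complex III were Uqcrq, Uqcrh, Uqcr10 and Uqcr11. Complex IV had 9 of 15 genes called and ATP synthase 9 of 17, and Cycs was not called.

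**Figure D1:**
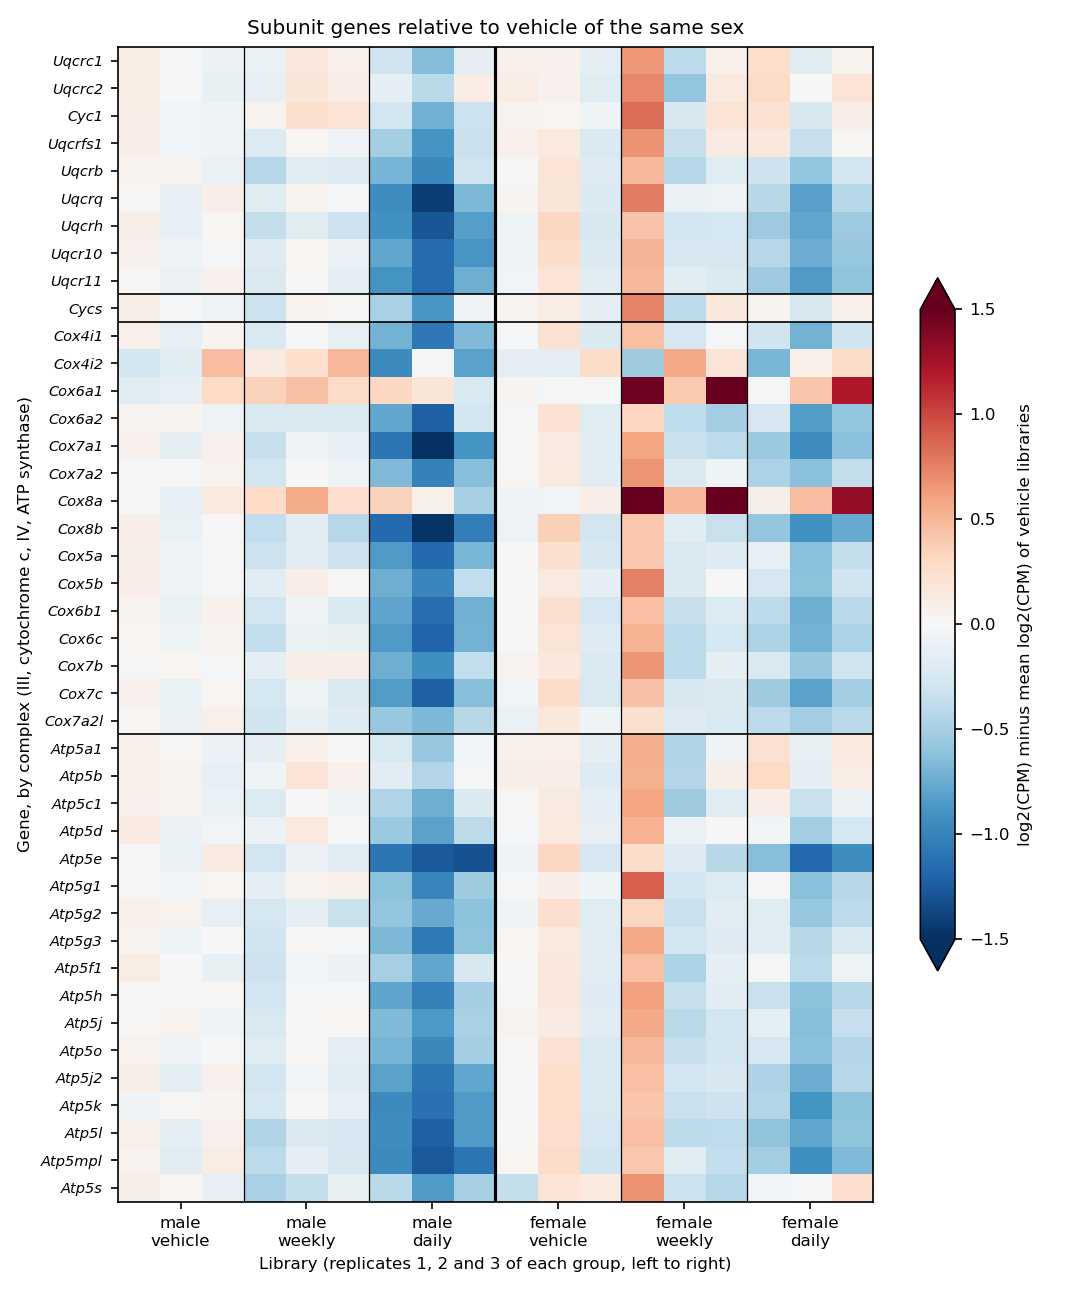
Heat map of the 42 genes (rows, by complex) in the 18 libraries (columns, 3 per group). Color is the log2 CPM of a library minus the mean log2 CPM of the vehicle libraries of the same sex, with the scale ending at 1.5 in both directions. Blue columns mark the 3 daily males, where 40, 39 and 39 genes lay below every male vehicle library (29.2%, 31.9% and 31.5% of all tested genes), and the red column is weekly female replicate 1.

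The small subunits of complex III made up all of its calls. Uqcrh, the hinge protein that sits beside cytochrome c1 (chr4:116066965-116075071, mm10), was at 348, 302 and 334 CPM in vehicle-treated males and at 175, 135 and 185 CPM in daily treated males. The groups did not overlap, and the log2 fold change was −0.99 ± 0.19 (SE, adjusted p = 0.0109). Uqcrq, Uqcr10 and Uqcr11, small membrane subunits, fell by 0.98, 0.93 and 0.92 on the log2 scale. The fifth, Uqcrb, had −0.63 and an adjusted p of 0.0826. The large core proteins Uqcrc1 and Uqcrc2 and the subunits that carry the electrons, cytochrome c1 (Cyc1) and the Rieske iron-sulfur protein (Uqcrfs1), were not called. Their log2 fold changes were −0.35, −0.13, −0.43 and −0.56. Uqcrc2 was at 314, 289.8 and 268 CPM in vehicle-treated males and at 265, 219 and 312 CPM in daily treated males, so that its groups overlapped. Cycs, the mobile carrier, was at 290.3, 267 and 259.9 CPM with vehicle and at 195, 148 and 259.9 CPM with daily prednisone. The highest daily library and the lowest vehicle library were level to the last digit given, and the log2 fold change was −0.44 ± 0.24 (adjusted p = 0.281).

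Among complex IV genes, the heart and muscle forms Cox8b and Cox7a1 fell furthest. Cox8b (chr7:140898943-140900446) was at 318, 277 and 295 CPM in vehicle-treated males and at 132, 107 and 145 CPM in daily treated males, a log2 fold change of −1.22 ± 0.20 (adjusted p = 0.00705). Cox7a1 was at 228, 199 and 228 CPM with vehicle and at 102, 78.0 and 117 CPM with daily prednisone, a log2 fold change of −1.14 ± 0.22 (adjusted p = 0.0109). For both genes every daily library was below every vehicle library. Cox6a2, the third muscle form, was at 696, 699 and 642 CPM and then at 395, 291 and 562 CPM. Its groups did not overlap either, but the daily libraries spread widely, and −0.71 ± 0.24 did not pass (adjusted p = 0.0851). The subunits of which a single form passed the count limit, Cox5a, Cox5b, Cox6b1, Cox6c, Cox7b and Cox7c, had log2 fold changes from −0.91 to −0.66, with Cox5a, Cox6b1, Cox6c and Cox7c called. Cox5a, next to subunit 4 in the matrix domain, was at −0.89 and Cox5b, which binds zinc, at −0.67. Of the widely made forms, Cox4i1 and Cox7a2 fell by 0.80 and 0.76. Cox6a1 and Cox8a had log2 fold changes of 0.10 and 0.01 and were the 2 genes of the 42 that lay above 0. Cox7a2l fell by 0.55 ± 0.13 (adjusted p = 0.0246).

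In ATP synthase the subunits of the F1 head split. The alpha and beta subunits that form the catalytic ring (Atp5a1, Atp5b) and the gamma shaft (Atp5c1) had log2 fold changes of −0.27, −0.20 and −0.45 and were not called, nor was the delta subunit Atp5d at −0.58. Atp5b was at 1906, 1867 and 1650.2 CPM in vehicle-treated males and at 1617, 1326 and 1769 CPM in daily treated males, with overlap. The epsilon subunit Atp5e (chr2:174461072-174464105) was at 289, 277 and 323 CPM with vehicle and at 139.9, 123 and 119 CPM with daily prednisone. That is a log2 fold change of −1.22 ± 0.19 (adjusted p = 0.00578), the lowest adjusted p of the 42. All 4 small membrane subunits fell, Atp5j2 by 0.89, Atp5k by 0.97, and Atp5l and Atp5mpl by more. Atp5mpl was at 174, 149 and 182 CPM with vehicle and at 86.6, 69.9 and 78.7 CPM with daily prednisone (adjusted p = 0.00772). Of the 3 genes for the c ring, whose proteins are identical once mature, Atp5g2 and Atp5g3 fell by 0.66 and 0.77, and Atp5g1 had −0.70 and an adjusted p of 0.101. In the peripheral stalk, Atp5h and Atp5o fell by 0.76 and 0.71, and Atp5f1 and Atp5j were not called. Pseudogene copies of Uqcrh and Atp5l are listed in the table, so counts of these genes are uncertain where reads match both.

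The calls in males leaned on single libraries. Leaving out daily male replicate 2, which was lowest of its group for 38 of the 42 genes, left 3 called genes, and leaving out vehicle male replicate 1 left 4. When the 6 male vehicle and daily libraries were left out one by one, Atp5e, Atp5mpl and Cox8b were called every time, and Atp5g2, Atp5g3, Atp5h, Atp5o and Cox7a2 never. The other counts without a vehicle or daily male were 10 to 17, and without weekly female replicate 1 it was 29, where 6.35% of all genes fell. A smaller group weakens the test for every gene, and the loss of calls was not compared with that over all tested genes. The median log2 fold change stayed between −0.80 and −0.60 when any 1 of the 18 libraries was left out.

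**Figure D2:**
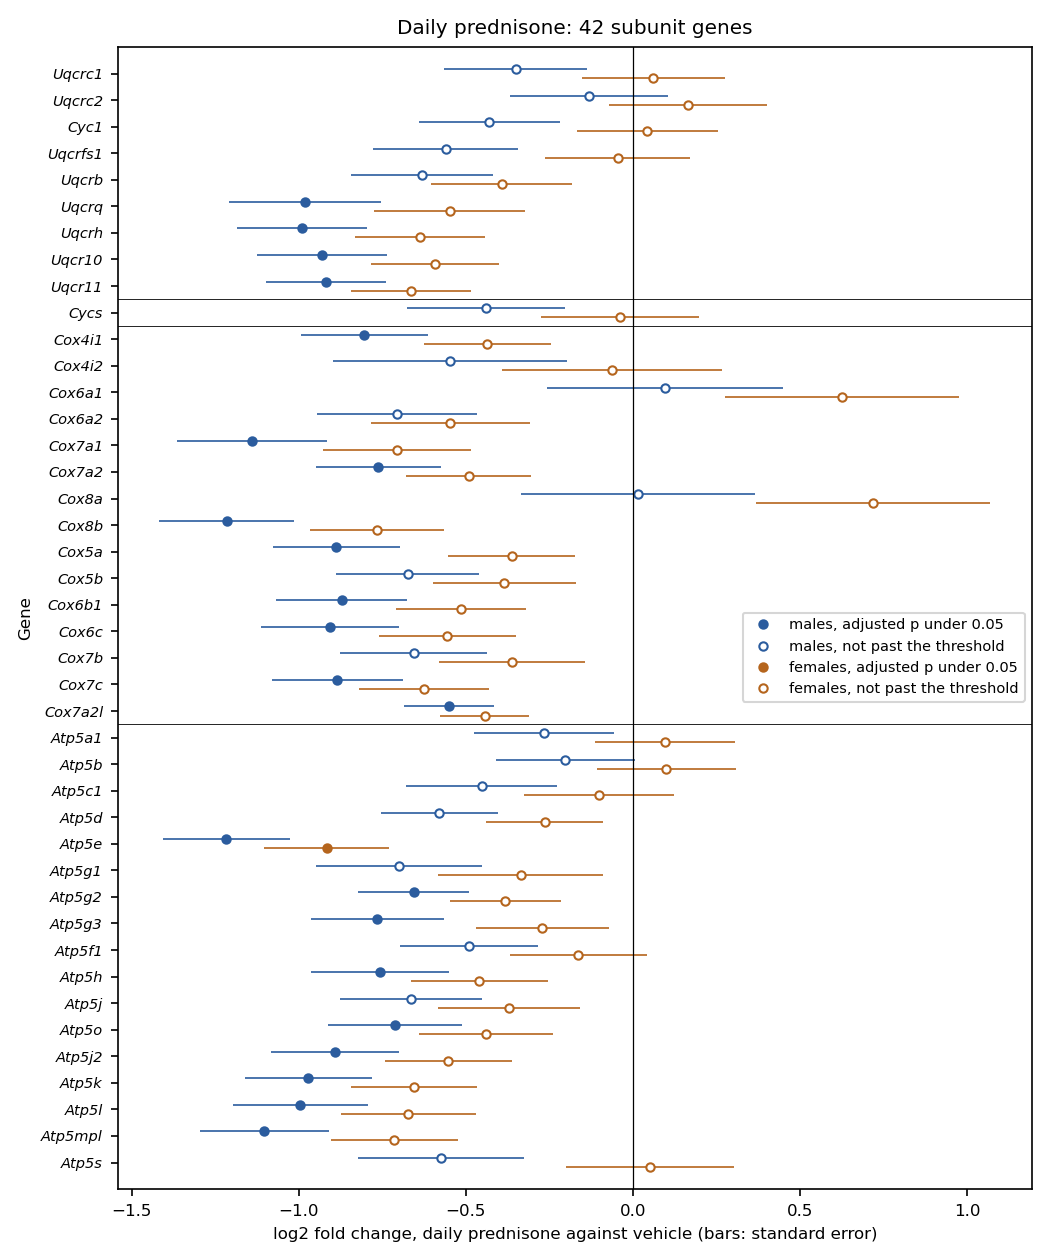
Log2 fold changes of the 42 genes for daily prednisone against vehicle in males (blue) and females (brown), with bars of 1 standard error. Filled points passed an adjusted p of 0.05: 22 genes in males and Atp5e in females. Cox6a1 and Cox8a are the points to the right of 0 in males, and every gene lies further left in males than in females.

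In daily treated females 1 gene of the 42 passed, Atp5e. It was at 314, 403 and 275 CPM in vehicle-treated females and at 209, 145 and 171 CPM in daily treated females, which do not overlap, with a log2 fold change of −0.92 ± 0.19 (adjusted p = 0.047). Of all tested genes 0.25% fell (0.382% moved either way). Of the 42, 34 lay below 0, as did 49.2% of all. In 23 of the 42 genes the daily libraries lay below all vehicle libraries, against 10.2% of all tested genes, and in none above them, against 12.9%. Of the 42, 21 genes had an unadjusted p under 0.05, against 17.3%. The median log2 fold change was −0.39, against 0.01 for all tested genes. The smallest p values in the other complexes belonged to Uqcr11 at −0.67 ± 0.18 (adjusted p = 0.0835) and Cox8b at −0.77 ± 0.20 (adjusted p = 0.0818). Cox8b was at 239, 323 and 208 CPM with vehicle and 168, 134 and 149.7 CPM with daily prednisone. DESeq2 called 9 of the 42 lower, where it called 1.77% of all tested genes lower. Weekly female replicate 1 is in neither compared group and enters through the shared filter, normalization and estimate of spread. Without it edgeR called 11, where 1.37% of all genes fell. Leaving out other single libraries left 1 gene called in 4 fits and none in 13.

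Males and females used separate vehicle groups, so their responses can be set side by side. All 22 genes called in males had log2 fold changes below 0 in females, from −0.92 for Atp5e to −0.27 for Atp5g3. In 19 of them the daily libraries lay below all vehicle libraries, as in 10.2% of all tested genes. The order of the 42 genes was much alike, with a Spearman rho of 0.94 across genes, which are not independent and share transcript length and depth between the sexes. Among the 8 genes above 0 in females were Cox8a at 0.72, Cox6a1 at 0.62 and core subunits, Uqcrc2 at 0.16, Atp5b at 0.10, Atp5a1 at 0.10, Uqcrc1 at 0.06 and Cyc1 at 0.04, none of them called. The log2 fold change was lower in males for 42 of 42 genes. The median difference was 0.34 on the log2 scale (female minus male), against 0.03 for all tested genes. All 36 nuclear complex I genes were also lower in males, with a median difference of 0.30. Of 6 mitochondrially encoded subunits of complexes III to V, 5 were lower in females. The vehicle levels, mostly higher in males, enter this difference directly. No gene passed for that difference with edgeR or DESeq2, and none had an unadjusted p under 0.05, where 4.69% of all tested genes did.

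Averaged over both sexes, daily prednisone lowered 28 of the 42 genes and raised none, where 7.47% of all tested genes fell and 7.48% rose. Of the 42, 39 lay below 0, as did 47.1% of all. The 28 called genes were 5 of 9 in complex III, 12 of 15 in complex IV and 11 of 17 in ATP synthase. Their log2 falls lay between 0.42 and 1.07. The largest of each complex were Atp5e at −1.07 ± 0.13 (adjusted p = 0.000471), Cox8b at −0.99 ± 0.14 (adjusted p = 0.000718) and Uqcrh at −0.81 ± 0.14 (adjusted p = 0.00173). The 14 genes that did not pass were Uqcrc1, Uqcrc2, Cyc1, Uqcrfs1, Cycs, Cox4i2, Cox6a1, Cox8a, Atp5a1, Atp5b, Atp5c1, Atp5f1, Atp5g1 and Atp5s. Leaving out each library in turn gave 21 to 29 called genes. With an adipocyte score of each library held constant none was called by edgeR, where 0.0662% of all genes fell, and the median was −0.68. The score was the mean log2 CPM of 10 adipocyte markers. Their summed CPM was 933 to 1848 in daily treated males against 517 to 812 in vehicle-treated males. In females it was 1502 to 3873 against 861 to 1042. The score thus ran along with the regimen, and this fit cannot separate them. In the same comparison 7 of 10 adipocyte markers rose (median log2 fold change 2.49), 6 of 10 fast-fiber markers fell (−0.43) and 4 of 5 blood markers fell (−0.63). The part of these shifts in the falls was not tested.

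Transcript length ran along with the size of the fall. The 22 genes called in males had transcripts of 360 to 1076 bases with a median of 542, and the 20 others had a median of 1083.5. Across the 42 genes the Spearman rho between log2 fold change and length was 0.76 in daily treated males and 0.75 in daily treated females. Over 13529 tested genes with a known length it was 0.43 and 0.31. In daily treated males, the other 181 tested genes under 500 bases had a median log2 fold change of −0.47 and the 9 respiratory genes of that length −0.98. From 1000 to under 2000 bases the medians were −0.20 for the others and −0.47 for 10 respiratory genes. In daily treated females the medians under 500 bases were −0.41 and −0.67, and from 1000 to under 2000 bases they were −0.13 and 0.00. Cox6a1 and Cox8a, with 571 and 550 bases, lay far above the other respiratory genes of their length in both sexes. When a smooth trend on length and GC content was removed from each library, 2 genes were called in males, Atp5e among them, where 0.169% of all genes fell, and 10 in the mean of both sexes, where 2.55% fell. The medians were then −0.45 in males and −0.19 in females. The part of transcript length or RNA quality in the falls was not tested.

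**Figure D3:**
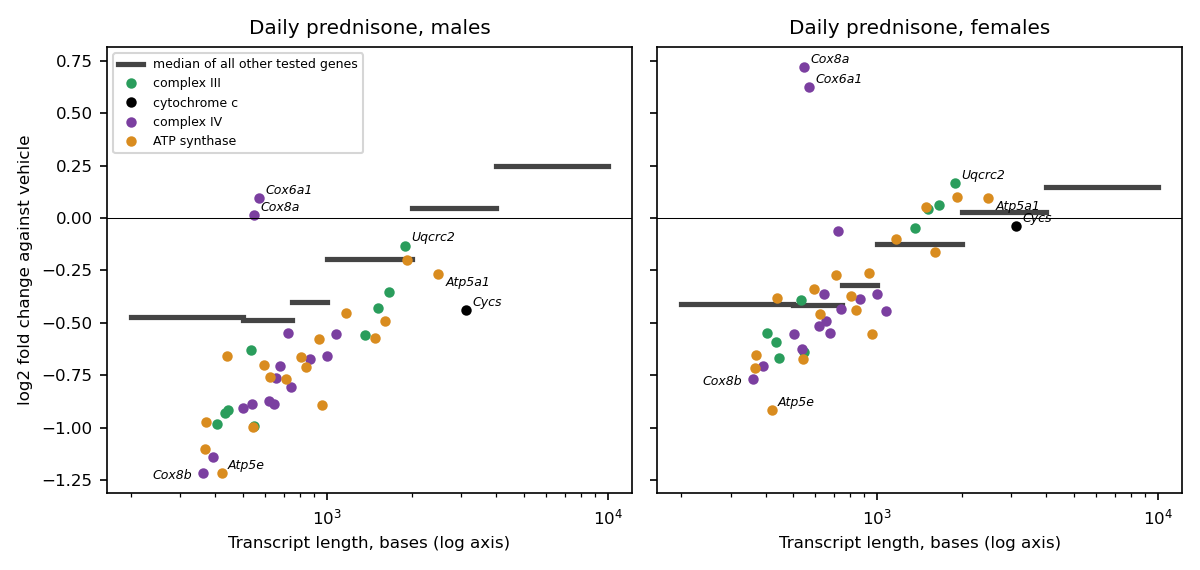
Log2 fold change for daily prednisone against vehicle (y axis) by transcript length in bases (log x axis) in males (left) and females (right). Points are the 42 genes by complex and bars are medians of all other tested genes in bins of length, the last drawn to the edge of the axis. Short respiratory genes lie lowest, except Cox6a1 and Cox8a, and the bars rise with length too, from −0.47 under 500 bases in males.

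The pairs of complex IV forms were compared as ratios of counts within a library, which do not depend on library scaling. The forms of a pair still differ in transcript length. Cox8b and Cox7a1, with 360 and 393 bases, are shorter than Cox8a and Cox7a2, with 550 and 659. Cox6a2, with 680 bases, is longer than Cox6a1, with 571. The part of length in the ratios was not tested. Differences in the log2 ratio were tested by exact permutation of treatment labels within sex (two-sided, 400 relabelings, smallest possible p of 0.005) and adjusted over 8 tests. Both regimens share the vehicle libraries. Cox8b to Cox8a stood between 10.4 and 12.6 in vehicle-treated males and between 8.49 and 14.6 in vehicle-treated females. With daily prednisone it was 3.97, 4.06 and 7.99 in males and 2.62, 4.27 and 6.92 in females, below all vehicle libraries of the same sex. The mean log2 difference was −1.29 with daily prednisone and −1.09 with weekly prednisone (exact permutation, adjusted p = 0.01 for each). In weekly treated males the 3 libraries were close together, from 7.09 to 7.33.

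Cox6a2 to Cox6a1 was also lower. It lay between 25.6 and 39.7 in the 6 vehicle libraries, and the mean log2 difference was −0.97 with daily prednisone (exact permutation, adjusted p = 0.0267) and −1.06 with weekly prednisone (exact permutation, adjusted p = 0.01). The lowest ratio, 5.17, was in a weekly treated female, and daily male replicate 3 at 32.2 and daily female replicate 1 at 28.5 lay within the range of the 6 vehicle libraries. The ratio of Cox7a1 to Cox7a2, from 1.64 to 1.86 in the vehicle libraries, differed by −0.30 with daily prednisone (exact permutation, adjusted p = 0.01) and by −0.12 with weekly prednisone (exact permutation, adjusted p = 0.0267). Leaving out 1 vehicle library took the adjusted p of the weekly Cox7 difference as high as 0.0733 and of the daily Cox6a difference as high as 0.064. Cox4i2 was rare, with as few as 15 counts in a library, and its ratio to Cox4i1 differed by 0.27 and 0.22 without passing (exact permutation, adjusted p = 0.44 and 0.49).

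**Figure D4:**
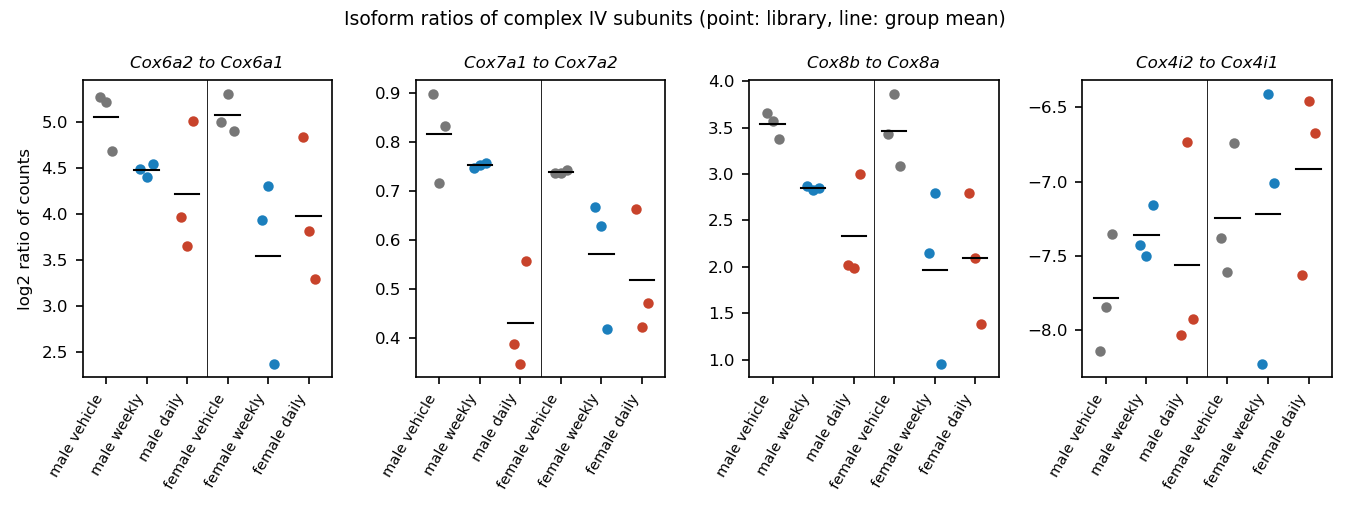
Log2 ratio of counts for 4 pairs of complex IV isoform genes in the 18 libraries, by sex and treatment (gray vehicle, blue weekly, red daily; lines are group means, and each y axis has its own range). Cox8b to Cox8a is below vehicle in every weekly and daily library of its sex, while Cox4i2 to Cox4i1 overlaps throughout.

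The 2 pairs with the largest shifts have a counterpart that was itself higher in some treated libraries. Cox6a1 was at 23.3, 22.2 and 22.3 CPM in vehicle-treated females, at 62.2, 29.6 and 103 CPM in weekly treated females and at 22.3, 30.1 and 52.0 CPM in daily treated females. Cox8a was at 22.1, 22.2 and 24.4 CPM, then 75.3, 32.1 and 103 CPM, and then 24.3, 31.5 and 57.2 CPM. Weekly female replicates 1 and 3 and daily female replicate 3 held the 3 highest values of both genes. The same 3 libraries had the 3 highest sums of 10 adipocyte markers, at 3864, 6511 and 3873 CPM, where vehicle-treated females had 861 to 1042 CPM. Weekly female replicate 3 also had 307 CPM of Ucp1, the uncoupling protein that defines brown adipocytes, where vehicle-treated females had at most 0.179 CPM, and 423 CPM over 7 brown adipocyte markers, against 3.04 to 5.50 CPM in vehicle-treated females. In weekly treated females the log2 fold changes were 1.52 ± 0.35 for Cox6a1 and 1.61 ± 0.36 for Cox8a (edgeR, adjusted p = 0.247 for each). With the adipocyte score of each library held constant they were 0.20 and 0.29, and in daily treated males they turned from 0.10 and 0.01 to −0.75 and −0.87 (adjusted p = 0.0646 and 0.0546). With that score held constant 1 of the 42 genes was called in daily treated males, Atp5e, where 0.184% of all genes fell, while the median of the 42 was −0.80. The score ran along with the regimen, so holding it constant cannot separate them. The part of adipocyte RNA in these values was not tested.

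**Figure D5:**
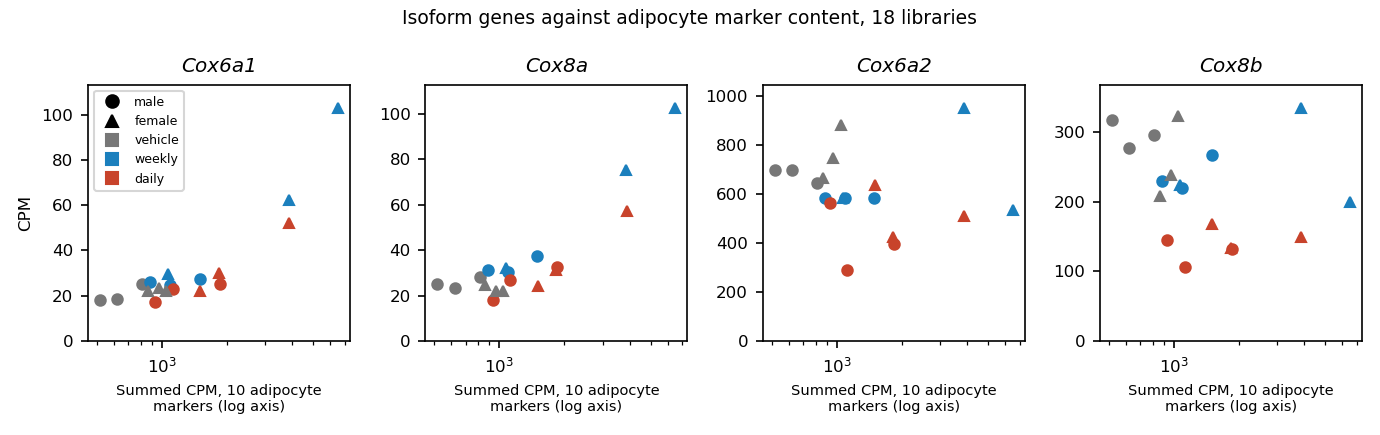
CPM of Cox6a1, Cox8a, Cox6a2 and Cox8b (y axes, from 0) against the summed CPM of 10 adipocyte markers (log x axis) in 18 libraries, with circles for males, triangles for females and color for treatment. Cox6a1 and Cox8a reach 103 CPM in the weekly female library with the highest marker sum, 6511 CPM, while Cox6a2 and Cox8b show no such rise there.

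Weekly prednisone changed none of the 42 genes by edgeR's test in either sex, and no gene among all 13596 passed (0.0%). In weekly treated males none had an unadjusted p under 0.05, where 5.71% of all genes did, and DESeq2 called none of the 42. The median log2 fold change was −0.11, 33 of 42 lay below 0 (48.4% of all genes), and the weekly libraries lay below all vehicle libraries in 10 genes and above them in 1, where 8.97% and 7.76% of all genes did. The smallest p values belonged to Cox8b at −0.31 ± 0.20 (adjusted p = 0.849), Atp5l at −0.31 ± 0.20 (adjusted p = 0.851) and Uqcrh at −0.29 ± 0.19 (adjusted p = 0.853). Cox8b was at 229.6, 267 and 219.6 CPM, just under the vehicle range of 277 to 318 CPM.

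Weekly treated females varied most. The summed level of the 42 genes was 18584, 10092 and 11892 CPM in replicates 1 to 3, against 11251 to 14378 CPM with vehicle. In replicate 1, 40 genes lay above all vehicle libraries, and in replicate 2, 31 lay below all of them, where 31.9% and 31.4% of all genes did. Replicate 2 also had the highest share of mitochondrially encoded RNA, 36.4%. The median log2 fold change was 0.05, and it was −0.26 without replicate 1 and 0.17 without replicate 2. The weekly libraries lay above all vehicle libraries in 2 genes and below them in none, where 4.94% and 3.13% of all genes did. Unadjusted p was under 0.05 for Cox6a1 and Cox8a alone, where 7.97% of all genes had that. DESeq2 called 2 of the 42, and 1.03% of all genes higher. In the mean of both sexes 26 of 42 lay below 0 (46.5% of all genes), and no gene passed with edgeR. The median there was −0.03, and −0.20 without weekly female replicate 1. The sex difference of the weekly response had no called gene with edgeR or DESeq2, with 2 genes at an unadjusted p under 0.05, where 2.63% of all genes had that. Its median was 0.19, and −0.095 without weekly female replicate 1.

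Set against each other in the same sex, daily prednisone gave lower values than weekly prednisone for 42 of 42 genes in males (median log2 difference −0.65, with 49.3% of all genes lower) and 41 of 42 in females (median −0.49, with 53.8%). In males 33 of the 42 did not overlap, where 12.7% of all genes did so. No gene of the whole table passed with edgeR (0.0%), although 30 of the 42 genes in males and 25 in females had an unadjusted p under 0.05, where 13.5% and 17.7% of all genes did. Atp5e had the smallest p in each sex, with a male log2 difference of −1.03 (adjusted p = 0.0892) and a female one of −0.82 (adjusted p = 0.0711). DESeq2 called 19 and 11 of the 42 lower, where it called 0.934% and 1.71% of all genes lower. Deviations from the group mean were correlated between daily and weekly females of the same number, at 0.50, 0.48 and 0.44 across genes. These numbers are those of the sample titles, and the column names carry other numbers, so it is not known that same-numbered samples belong together. A block for the number, fitted to the daily and weekly libraries alone, gave 10 of the 42 genes lower with daily prednisone, where 1.68% of all genes were lower. The same block in males gave none. In the fit with no block, leaving out weekly female replicate 1 gave 15 called genes in males, where 0.478% of all genes were lower. In females the median was −0.21 without weekly replicate 1.

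Other genes of the respiratory chain were looked up beside these. Of 36 nuclear complex I genes, 25 fell in daily treated males and 1 in daily treated females, with a median log2 fold change of −0.77 and −0.49, where 4.38% and 0.25% of all tested genes fell. Complex II, which pumps no protons, had 1 of 4 genes called in males, Sdhd at −0.62. Among assembly factors, 2 of 6 for complex III (Uqcc2 at −1.12 and Uqcc3 at −0.95), 4 of 19 for complex IV (Cox17, a copper chaperone, at −1.01, with Coa3, Cox14 and Pet100) and 1 of 4 for ATP synthase (Fmc1 at −0.78) fell in males. Atpif1, the inhibitor of ATP synthase, is not covered by the symbol rule and fell by 0.79. Of the 6 mitochondrially encoded subunits of complexes III to V none was called in daily treated males and 4 fell in the mean of both sexes (7.47% of all genes), mt-Co1 by 0.78, mt-Atp6 by 0.88, mt-Cytb by 0.72 and mt-Co2. Only mt-Co1 and mt-Cytb of these 4 were abundant. The counts of mt-Co2 and mt-Atp6 never passed 15.3 and 21.2 CPM, and since mitochondrial genes have near-identical nuclear copies, those low values are uncertain.

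Regulators of respiratory genes did not fall as a list. Of 16 such genes, 1 rose in daily treated males, Gabpa, a subunit of the ETS factor GABP, and none fell, where 2.07% of all genes rose. Gabpa was at 14.4, 17.3 and 18.5 CPM with vehicle and at 22.5, 23.2 and 31.9 CPM with daily prednisone, a log2 fold change of 0.63 ± 0.16 (adjusted p = 0.0326). In the mean of both sexes 5 rose, where 7.48% of all genes did: Gabpa, Gabpb2, Yy1, Pprc1 and Ppargc1b, the last of which is also on the brown adipocyte marker list. Long genes tended to rise in both comparisons. Tested genes of 4000 bases and over had medians of 0.25 in daily treated males and 0.18 in the mean of both sexes. Of them, 20.6% and 22.5% lay below 0. The part of transcript length in the rises of regulators was not tested. Nrf1 had 0.03 in males, Tfam −0.18, Ppargc1a 1.08 (adjusted p = 0.178) and Esrra −0.53 (adjusted p = 0.0902). With weekly prednisone no gene of any of these lists was called.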

How the data were processed

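RNA from isolated quadriceps myofibers was sequenced in 18 libraries, grouped by their labels into 6 groups of 3. Whole-number counts of reads for each gene were deposited, from reads that the authors aligned to mm10. The submitters' processing notes name TopHat2 2.1.0, Bowtie2 2.2.6 and HTSeq, and list mm9 beside mm10. The strand setting and annotation release are not given in the sources used here, so overlapping genes and near-identical copies are uncertain. Total counts per library were 10506661 to 14686654.

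Counts were fitted in R 4.3.3 with edgeR 4.0.16 (filterByExpr with a minimum count of 10, TMM, robust quasi-likelihood fit of 6 group means over 18 libraries), and p values were adjusted by Benjamini-Hochberg over 13596 genes, with calls at 0.05. Standard errors were derived from the F statistic. DESeq2 1.42.0, limma-voom (limma 3.58.1), DESeq2 size factors, no filter, a minimum count of 50, the compared groups alone, mitochondrially encoded genes left out, a length and GC trend removed (splines of 5 degrees of freedom), the adipocyte score as a covariate, a replicate block and leaving out each library were alternatives. Steps were tested on simulated data. The 8 isoform ratios were tested by exact permutation. Lengths came from GENCODE M21 transcripts.

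Members and gene lists were chosen with earlier results of these data known, and respiratory genes were also singled out by the study on these samples, so their direction is not independent evidence. Named genes were the isoform pairs, a fixed set of core subunits and, per complex and comparison with vehicle, the largest called fall or the smallest p. Other members named, among them Atp5mpl, Uqcr10 and Cox7a2l, were chosen after their values were seen. Replicate numbers come from sample titles, differ from the numbers in most column names, and are tied by the labels to no litter or batch. The p values weigh differences between groups against the spread between these samples. Same-numbered libraries deviated together in every pair only for daily and weekly females, and the block for those libraries was added after that was seen.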

Additional observations from a re-analysis of the deposited data

How the results depend on the processing

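With 3 libraries a group, counts of called genes depended on single libraries more than the fold changes did. Leaving out a library of a compared group weakens the test for every gene, and shares of all genes are not given for these ranges. Leaving out each library in turn gave 3 to 29 called genes of the 42 in daily treated males, 0 to 11 in daily treated females, 21 to 29 in the mean of both sexes for daily prednisone, 0 to 2 in weekly treated females and in the weekly mean, and 0 to 15 for daily against weekly males; it gave 0 in all other comparisons. Against 22, 1 and 28 called genes for daily prednisone in males, females and the mean of both sexes, removing the length and GC trend left 2, 0 and 10, and holding the adipocyte score constant left 1, 0 and 0. In daily treated females DESeq2 called 9, and the replicate block, leaving out mitochondrially encoded genes and fitting the compared groups alone called 0. DESeq2 called 2 in weekly treated females and in the weekly mean, against 0. For daily against weekly prednisone, against 0, males had 19 with DESeq2, 1 without the filter and 1 with the compared groups alone, and females had 11 with DESeq2, 2 with a minimum count of 50, 2 with the adipocyte score held constant and 10 with the replicate block in the daily and weekly libraries alone. The block over all 18 libraries moved no other count by more than 1.5 times. The adipocyte score ran along with the regimen, so the fit that held it constant cannot separate them. The causes were not tested. Isoform ratio differences ranged, leaving out 1 library, from −1.18 to −0.80 (Cox6a2 to Cox6a1, daily) and from −0.14 to −0.078 (Cox7a1 to Cox7a2, weekly), where the adjusted p reached 0.064 and 0.0733 (exact permutation). Of 3774 values of named genes under the alternatives, 3651 stayed on their side of the threshold, 91 lost a call, 32 gained one and none reversed a called direction, while 164 that were called in neither fit changed sign.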
